A study of Rattus norvegicus with 15 samples.

Results

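Heat shock proteins and chaperones were followed through cocaine withdrawal in the nucleus accumbens of the rat, part of the ventral striatum and of the brain's reward circuit. The set held 31 genes, chosen by name as chaperones or their co-chaperones, of 14497 genes that the arrays measured with a probe set of 1 gene symbol. It divided into 18 cytosolic genes, 10 genes of the endoplasmic reticulum (ER) and 3 mitochondrial genes. Where a gene had several probe sets, the one with the greatest mean level was read. All 31 were measured, and each exceeded the 30th percentile on all 15 arrays, so none entered through 1 group alone. Hspa1a, Hspa1b and Hspa1l, inducible or related Hsp70 genes, share a probe set with several symbols and were not read.

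The samples came from male Sprague-Dawley rats that carried a jugular catheter and pressed a lever for infusions 6 hours a day over 10 days. Group 30C had taken cocaine at 0.75 mg/kg per infusion, was withdrawn for 30 days and then had an extinction test, in which cue-induced cocaine seeking was assessed. Group 30W had the same cocaine and 30 days of withdrawal with no test. Groups 1C and 1W had 1 day of withdrawal, with the test in 1C and without it in 1W. Group Sal self-administered saline, and its labels give neither a withdrawal time nor a test. Each group had 3 arrays. Whether an array held RNA of 1 rat or of several is not in the labels, so p-values measure only the spread between these samples.

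Chaperones bind unfolded proteins and help them to fold, to refold after stress or to be degraded. In the cytosol Hsp70 proteins work with J-domain partners, nucleotide exchange factors, Hsp90 and the small heat shock proteins, and many of these genes are induced by the transcription factor HSF1 through heat shock elements. In the ER the Hsp70 protein BiP, the Hsp90 protein GRP94, the lectins calnexin and calreticulin and the disulfide isomerases fold secreted and membrane proteins, and many are induced in the unfolded protein response. Mitochondria hold their own Hsp70 and a chaperonin.

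The values were RMA log2 intensities, on which 1 unit is a doubling, and they allow a gene to be compared between arrays but not with another gene. Correlations between arrays over all probe sets lay between 0.9929 and 0.9967. The arrays differed within groups in tissue markers. The score of 6 cortical projection neuron markers (their mean deviation from their means over the 15 arrays) ranged from -0.81 to 1.20 in 30C and from -1.61 to 0.88 in Sal. Their leading gene, Slc17a7, was at 12.16 on 30C replicate 1 and 7.16 on Sal replicate 1. All 13 measured markers of medium spiny neurons, the principal cells of the labelled region, passed the filter on low values. In such bulk tissue fewer cells of a type and less RNA per cell cannot be told apart.

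In limma, with p-values adjusted by Benjamini-Hochberg over 11778 genes, 0 of the 31 chaperone genes passed an adjusted p of 0.05 in any of the 12 comparisons or in the F test over the 5 groups. Of all genes 0% passed in the F test and in each comparison except withdrawal time averaged over the test, where 1 gene passed, so the 0 says nothing particular to chaperones. The values below are measured differences, none of which passed. At an unadjusted p under 0.05 the F test took 3 members, Dnaja4, Hspb1 and Hspa5, against 6.96% of all genes. The range of a member over the 15 arrays had a median of 0.28 on the log2 scale, beside 0.33 over all 11778 genes. It lay under 0.2 for 10 members (13% of all genes) and over 0.5 for 4 (17.4%). Those 4 were Hspb1 at 1.09, Hspb8 at 0.67, Cryab at 0.61 and Bag3 at 0.60. Hspb1, Hspb8 and Cryab encode small heat shock proteins, and Bag3 is a partner of Hspb8.

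**Figure D1:**
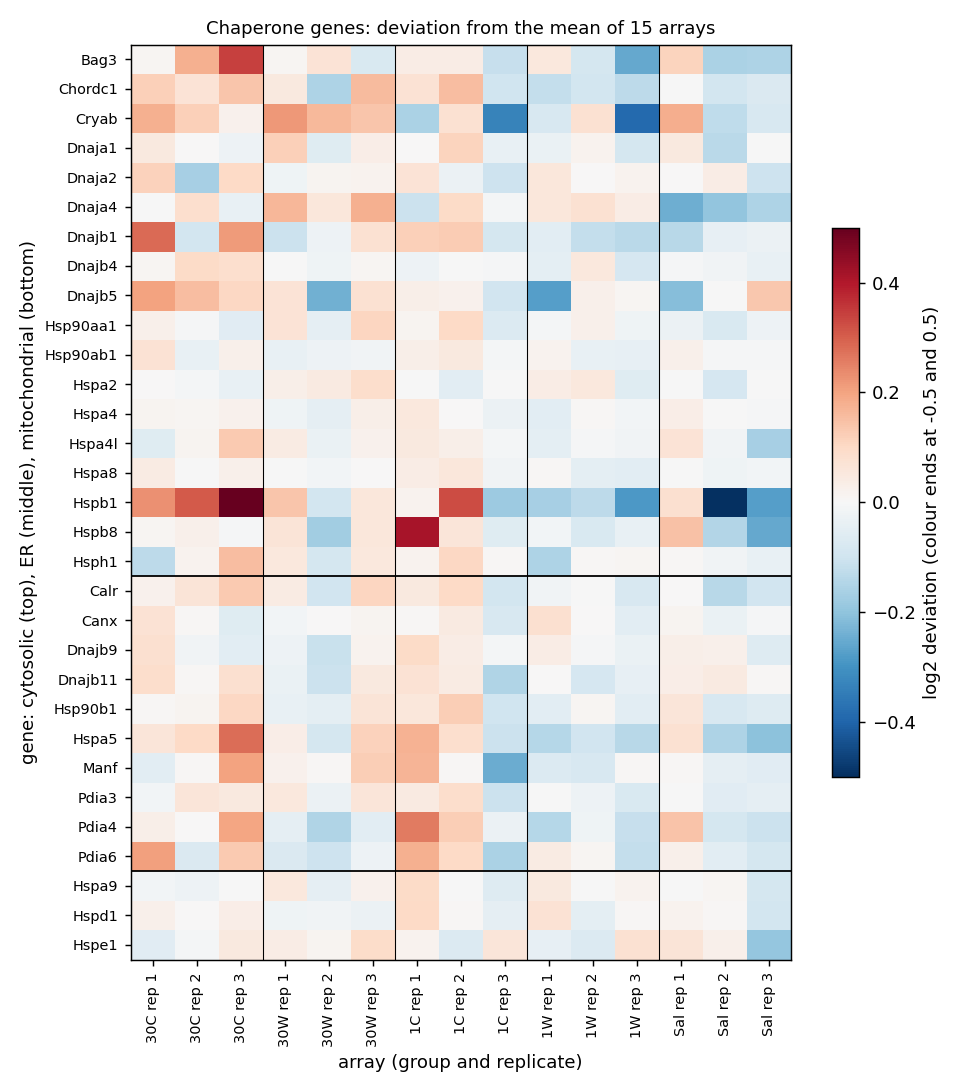
Each row is a chaperone gene and each column an array, coloured by the log2 deviation from the gene's mean over the 15 arrays, with red above and blue below. The rows of Hspb1, Hspb8, Cryab and Bag3 hold the strongest colours, with ranges of 0.60 to 1.09, and the mitochondrial rows at the bottom are pale.

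Small heat shock proteins keep unfolding clients from aggregating. Hspb1, encoding Hsp27, was at 8.53, 8.61 and 8.83 on the 30C arrays, at 8.44, 8.21 and 8.36 on the 30W arrays, at 8.32, 8.63 and 8.12 on the 1C arrays, at 8.14, 8.17 and 8.01 on the 1W arrays, and at 8.38, 7.75 and 8.03 on the Sal arrays. All 3 arrays of 30C lay above all of 30W, 1W and Sal, while 1C replicate 2 lay within the 30C range. The difference of 30C from Sal was 0.61 (SE 0.15), a fold of 1.52, with adjusted p = 0.60 in limma. That of 30C from 30W was 0.32 (SE 0.15, adjusted p = 0.999). The Sal arrays were the most spread, and the difference of 30C from Sal was 0.45 without Sal replicate 2 and 0.77 without Sal replicate 1.

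Hspb1 lay in between in the remaining groups. Its difference from Sal was 0.29 (SE 0.15) in 30W, 0.31 (SE 0.15) in 1C and 0.06 (SE 0.15) in 1W. Without Sal replicate 2 these were 0.13, 0.15 and -0.10, and without Sal replicate 1 they were 0.45, 0.47 and 0.22. Over the 4 cocaine groups it averaged 0.31 (SE 0.12) above Sal with adjusted p = 0.9955, and this average rested on single Sal arrays. It was 0.16 without Sal replicate 2 and 0.48 without Sal replicate 1.

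Cryab, which encodes alpha B-crystallin, a small heat shock protein found in oligodendrocytes and astrocytes, was at 11.57, 11.51 and 11.42 on the 30C arrays and at 11.61, 11.56 and 11.53 on the 30W arrays. On the day 1 arrays it was at 11.24, 11.47 and 11.06 in 1C and at 11.32, 11.47 and 11.01 in 1W. All 30W arrays lay above all 1W arrays, and the difference was 0.30 (SE 0.12, adjusted p = 0.44). Averaged over the test, day 30 exceeded day 1 by 0.27 (SE 0.08, adjusted p = 0.25).

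Sal did not stand at either end for Cryab, with values of 11.58, 11.27 and 11.32 that overlapped all 4 other groups. The replicates of 1W spread widely, and without 1W replicate 3 the difference of 30W from 1W was 0.17. The score of 12 oligodendrocyte markers was -0.03, 0.01 and -0.03 in 30W and 0.24, 0.20 and -0.03 in 1W, and its part in the Cryab values was not tested. Hspb8, the third small heat shock gene, was highest on 1C replicate 1 at 7.46 and lowest on Sal replicate 3 at 6.79. Its difference from Sal in 1C was 0.22 (SE 0.12), but 0.09 without 1C replicate 1 and 0.34 without Sal replicate 1.

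J-domain proteins bring clients to Hsp70 and start its ATP cycle. Dnaja4, a J-domain protein of the cytosol, was at 7.52, 7.61 and 7.49 on the 30C arrays, at 7.69, 7.58 and 7.70 on the 30W arrays, at 7.42, 7.62 and 7.52 on the 1C arrays, at 7.58, 7.60 and 7.56 on the 1W arrays, and at 7.28, 7.33 and 7.37 on the Sal arrays. All 12 arrays of cocaine rats lay above all 3 Sal arrays. Dnaja4 was the 1 member of 31 with this order, which 0.246% of all genes tested had. It was singled out after its values were seen.

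The difference of Dnaja4 from Sal was 0.21 (SE 0.06) in 30C, 0.33 (SE 0.06) in 30W, 0.19 (SE 0.06) in 1C and 0.26 (SE 0.06) in 1W. The adjusted p-values in limma were 0.70, 0.29, 1 and 0.56 in that order of groups, and 0.51 for the average of 0.25 (SE 0.04) over the 4 groups. The 4 comparisons share the same 3 Sal arrays, so they do not repeat one another independently. By the extinction test Dnaja4 and Hspb1 had opposite signs, and by withdrawal time the same sign. For Dnaja4 the groups with the extinction test averaged 0.09 (SE 0.04) below those without it, and the 30C arrays overlapped the 30W arrays.

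Dnajb1, the heat-inducible J-domain protein, was at 8.67, 8.30 and 8.60 on the 30C arrays, at 8.28, 8.37 and 8.47 on the 30W arrays, at 8.51, 8.52 and 8.30 on the 1C arrays, at 8.34, 8.27 and 8.26 on the 1W arrays, and at 8.25, 8.35 and 8.36 on the Sal arrays. In 30C and in 1C, 2 of 3 arrays stood above the Sal arrays and the other lay among them. The difference of 30C from Sal was 0.20 (SE 0.09, adjusted p = 0.95), and it was 0.13 without 30C replicate 1 and 0.32 without 30C replicate 2.

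The other cytosolic J-domain genes were Dnajb4, Dnajb5, Dnaja1 and Dnaja2. In 30C both Dnajb4 and Dnajb5 lay above 1C with no overlap between arrays, and Dnajb5 also above 30W. Dnajb5 was at 10.04, 9.99 and 9.94 on the 30C arrays and at 9.90, 9.59 and 9.91 on the 30W arrays, a difference of 0.19 (SE 0.10) that was 0.08 without 30W replicate 2. Dnaja1 and Dnaja2, general Hsp70 partners, differed from Sal by 0.04 in 30C (SE 0.06 and 0.07). The sign turned without Sal replicate 2 for Dnaja1 (-0.02) and without 30C replicate 1 for Dnaja2 (-0.01).

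**Figure D2:**
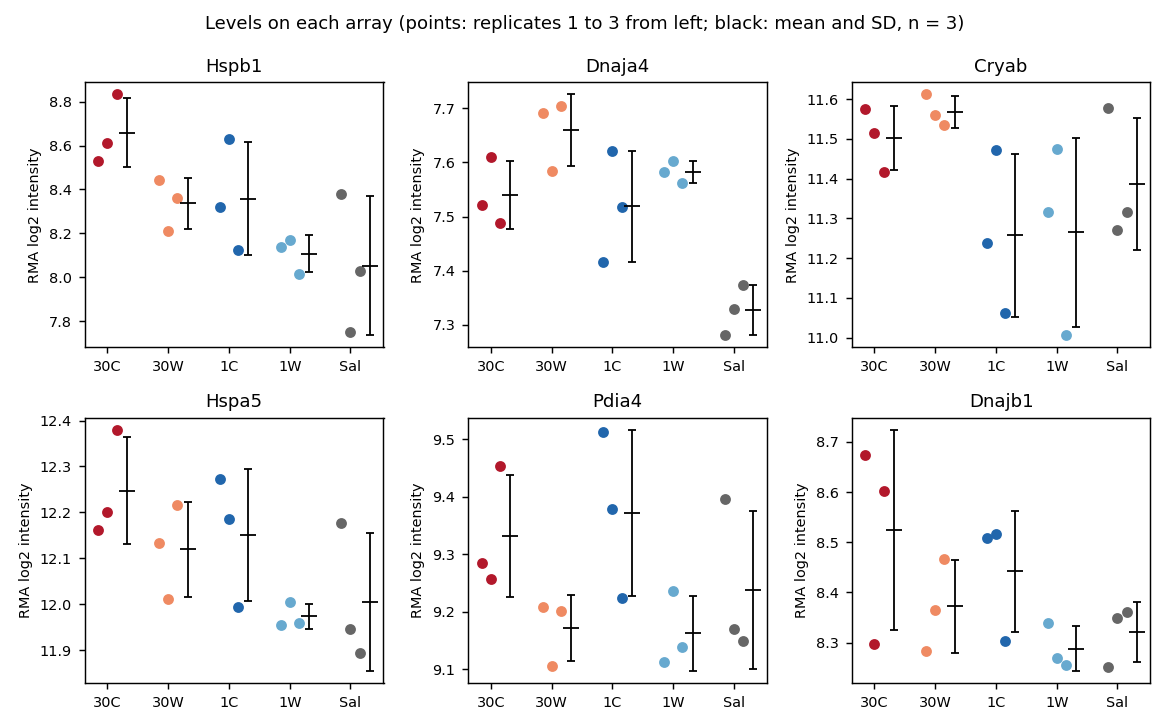
Points give the RMA log2 intensity of Hspb1, Dnaja4, Cryab, Hspa5, Pdia4 and Dnajb1 on each array by group, and black marks give the mean and SD of 3 arrays. The mean of Hspb1 is highest in 30C, Dnaja4 is lowest in Sal at 7.28 to 7.37, and the means of Cryab are higher in both day 30 groups than in the day 1 groups, with 30C and day 1 points overlapping.

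The core Hsp70 and Hsp90 genes had small ranges. Hspa8, the constitutive Hsp70 of neurons and other cells, was at 13.41, 13.37 and 13.39 on the 30C arrays, at 13.37, 13.35 and 13.37 on the 30W arrays, at 13.41, 13.42 and 13.35 on the 1C arrays, at 13.38, 13.32 and 13.32 on the 1W arrays, and at 13.37, 13.35 and 13.36 on the Sal arrays. The largest gap between its group means was under 0.06. All 30C arrays lay above all Sal arrays, yet by 0.03 (SE 0.04). The other 4 probe sets with the Hspa8 symbol differed from Sal in 30C by 0.04, 0.17, 0.14 and 0.30. The one at 0.30 had a mean of 6.83, against 13.37 for the probe set read. Hspa8 has near-identical copies in the genome, so its values are uncertain.

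Hsp90aa1, the inducible cytosolic Hsp90, was at 12.03, 12.00 and 11.95 on the 30C arrays, at 12.07, 11.96 and 12.11 on the 30W arrays, at 12.02, 12.11 and 11.94 on the 1C arrays, at 12.00, 12.03 and 11.98 on the 1W arrays, and at 11.98, 11.93 and 11.98 on the Sal arrays. The groups overlapped except 1W and Sal, and all 4 differences from Sal were between 0.03 and 0.09 (SE 0.05). Hsp90ab1, its constitutive partner, varied by 0.11 over the 15 arrays. Hspa2, an Hsp70 best known from testis, varied by 0.17.

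Exchange factors release ADP from Hsp70. Hsph1, the heat-inducible Hsp110 protein, was at 10.22, 10.37 and 10.50 on the 30C arrays, at 10.40, 10.26 and 10.40 on the 30W arrays, at 10.37, 10.45 and 10.35 on the 1C arrays, at 10.19, 10.35 and 10.36 on the 1W arrays, and at 10.35, 10.33 and 10.31 on the Sal arrays. The 30C arrays spanned all other arrays except 1W replicate 1. Hspa4, of the same family, had the smallest range of all members, 0.10, and Hspa4l one of 0.30. Bag3, an exchange factor that directs clients to autophagy, was at 8.62, 8.79 and 8.96 on the 30C arrays and at 8.72, 8.45 and 8.46 on the Sal arrays. The groups overlapped, the difference was 0.24 (SE 0.10, adjusted p = 0.93), and it was 0.16 without 30C replicate 3.

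Chordc1, which binds Hsp90, was at 9.67, 9.62 and 9.69 on the 30C arrays, at 9.60, 9.40 and 9.71 on the 30W arrays, at 9.62, 9.71 and 9.46 on the 1C arrays, at 9.43, 9.46 and 9.42 on the 1W arrays, and at 9.55, 9.46 and 9.48 on the Sal arrays. The 30C arrays were tight and lay above all 1W and Sal arrays, while 30W and 1C spanned both. The difference of 30C from Sal was 0.16 (SE 0.07, adjusted p = 0.97).

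The promoters of these genes were read for the heat shock element, the site that HSF1 binds, because it is the sequence feature that defines the cytosolic response. Windows of 300 bases, from 250 before to 50 after the annotated start, came from RefSeq on build GRCr8 and were found for 24 of the 31 genes. The motif searched was 3 alternating triplets, GAA, TTC and GAA or the reverse complement TTC, GAA and TTC, with 2 bases of any kind between triplets, on both strands. It occurred in 6 of the 24 windows (Hspa8, Hsph1, Hspd1, Hspe1, Dnaja1 and Chordc1), against 0.798% of 33469 promoter windows. With at most 1 mismatch it occurred in 10 of 24, adding Hspb1, Dnajb1, Bag3 and Hspa9, against 8.38%. In Dnaja1 and Chordc1 the match lay after the start.

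Stretches are shown 5′ to 3′ on the gene's strand, with the motif in capitals, around matches of 1 Hsp70 and 1 Hsp110 gene. For Hspb1 the last 1-mismatch match before the start is shown. Beside them are the 100 bases before the start of Dnaja4, which held no match. The stretches are Hspa8 at chr8:50080439-50080491 (+), Hsph1 at chr12:10427312-10427364 (+), Hspb1 at chr12:26432398-26432450 (-) and Dnaja4 at chr8:63981487-63981586 (+).
Hspa8: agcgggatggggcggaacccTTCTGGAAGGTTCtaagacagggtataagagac
Hsph1: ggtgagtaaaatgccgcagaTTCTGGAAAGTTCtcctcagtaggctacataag
Hspb1: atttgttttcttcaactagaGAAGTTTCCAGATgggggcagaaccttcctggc
Dnaja4: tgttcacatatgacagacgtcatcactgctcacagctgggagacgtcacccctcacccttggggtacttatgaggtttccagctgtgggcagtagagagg

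Of the cytosolic genes with an exact match, Hspa8 and Hsph1 differed from Sal in 30C by 0.03 each, Dnaja1 by 0.04 and Chordc1 by 0.16. Hspb1, Bag3 and Dnajb1, at 0.61, 0.24 and 0.20, had a match only with a mismatch. Dnaja4, at 0.21, was among the genes with none. A match is a description of letters in the window and no evidence of binding.

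In the ER the lead gene was Hspa5, which encodes BiP. It was at 12.16, 12.20 and 12.38 on the 30C arrays, at 12.13, 12.01 and 12.22 on the 30W arrays, at 12.27, 12.18 and 11.99 on the 1C arrays, at 11.96, 12.01 and 11.96 on the 1W arrays, and at 12.18, 11.95 and 11.89 on the Sal arrays. All 30C, and all 30W, arrays lay above all 1W arrays, while Sal replicate 1 lay within the 30C range. The difference of 30C from Sal was 0.24 (SE 0.09, adjusted p = 0.89).

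Calr, encoding the lectin calreticulin, was at 11.41, 11.45 and 11.52 on the 30C arrays, at 11.43, 11.29 and 11.49 on the 30W arrays, at 11.43, 11.49 and 11.29 on the 1C arrays, at 11.37, 11.38 and 11.30 on the 1W arrays, and at 11.39, 11.25 and 11.29 on the Sal arrays. The 30C arrays lay above all Sal arrays, by 0.15 (SE 0.06, adjusted p = 0.95). Canx, encoding the membrane-bound lectin calnexin, had a difference of 0.01 (SE 0.05). Hsp90b1, which encodes GRP94, was at 0.07 (SE 0.06).

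Pdia4, a protein disulfide isomerase, was named after its values were seen. It was at 9.29, 9.26 and 9.45 on the 30C arrays, at 9.21, 9.10 and 9.20 on the 30W arrays, at 9.51, 9.38 and 9.22 on the 1C arrays, at 9.11, 9.24 and 9.14 on the 1W arrays, and at 9.40, 9.17 and 9.15 on the Sal arrays. All 30C arrays lay above all 30W arrays, and 2 of 3 arrays of 1C lay above all of 1W. Averaged over withdrawal time the groups with the test exceeded those without it by 0.19 (SE 0.06, adjusted p = 0.95), and the difference of 1C from 1W was 0.14 without 1C replicate 1, against 0.21 with it.

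Of the other ER members Pdia6, a second isomerase, was above 30W in 30C by 0.16 (SE 0.09), or by 0.10 without 30C replicate 1 and 0.24 without 30C replicate 2. Pdia3, which serves glycoproteins, differed by 0.0028 (SE 0.05), and by -0.03 without 30W replicate 2. Manf, a secreted protein made under ER stress, was highest on 30C replicate 3 at 8.51 and lowest on 1C replicate 3 at 8.06. The BiP partners Dnajb9 and Dnajb11 had ranges of 0.21 and 0.24 over the 15 arrays.

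The ER stress element, CCAAT and CCACG with 9 bases of any kind between, is bound under ER stress by ATF6 together with NF-Y. On both strands it occurred in the promoter windows of Hspa5, Hsp90b1, Calr and Canx, 4 of the 7 ER genes with a window and 0 of the 17 others, against 0.0657% of all 33469 windows. With at most 1 mismatch Pdia4 joined them, against 1.41%. These 4 stretches are shown because they hold the exact motif, with the motif in capitals (as CGTGG and ATTGG where it runs on the other strand), at chr3:38452953-38453011 (+) for Hspa5, chr19:40213117-40213173 (+) for Calr, chr7:23012327-23012385 (-) for Hsp90b1 and chr10:35158049-35158107 (-) for Canx.
Hspa5: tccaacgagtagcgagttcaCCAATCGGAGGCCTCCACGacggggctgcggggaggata
Calr: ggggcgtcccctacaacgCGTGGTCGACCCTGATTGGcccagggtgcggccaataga
Hsp90b1: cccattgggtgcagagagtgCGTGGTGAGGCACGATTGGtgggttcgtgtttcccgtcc
Canx: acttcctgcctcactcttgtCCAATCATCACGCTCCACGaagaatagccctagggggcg

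Carrying this motif, Hspa5 and Calr differed from Sal in 30C by 0.24 and 0.15, and Hsp90b1 and Canx by 0.07 and 0.01. For Hsp90b1 it was 0.04 without 30C replicate 3 and 0.11 without Sal replicate 1, and for Canx it was -0.02 without 30C replicate 1. Whether the motif bears on these values was not tested.

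The mitochondrial chaperones had ranges of 0.19 to 0.29 over the 15 arrays. Hspd1, the chaperonin Hsp60, was at 9.72, 9.69 and 9.72 on the 30C arrays, at 9.67, 9.67 and 9.66 on the 30W arrays, at 9.79, 9.70 and 9.65 on the 1C arrays, at 9.76, 9.64 and 9.70 on the 1W arrays, and at 9.71, 9.70 and 9.60 on the Sal arrays. The 30C arrays lay above the 30W arrays with no overlap, by 0.04 (SE 0.05). The other probe set of Hspd1, with a mean of 6.16, was at -0.04 in this comparison. Hspe1, its co-chaperonin Hsp10, ranged from 9.89 on Sal replicate 3 to 10.18 on 30W replicate 3, and Hspa9, the mitochondrial Hsp70, from 10.12 to 10.31.

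Hspd1 and Hspe1 lie head to head, and their windows share 1 run of 4 alternating triplets, shown on the Hspe1 strand at chr9:64084242-64084299 (+) with the triplets in capitals.
Hspe1: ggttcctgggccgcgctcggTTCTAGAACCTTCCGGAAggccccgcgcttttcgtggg
At the probe sets read, neither gene differed from Sal by more than 0.09 in any group.

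Set against Sal as a whole, the 30C arrays gave positive differences for all 31 members, with a median of 0.067, against 46.8% of all genes and a median of -0.0055. This count was already known when the genes were grouped, so it is no independent support. It was 25 after median centring and 29 after a further quantile normalization, 26 without Sal replicate 3, 27 without 30C replicate 1 and 28 without Sal replicate 2. At an unadjusted p under 0.05 in limma 7 members were higher and 0 lower, 5 of 18 cytosolic (Bag3, Chordc1, Dnaja4, Dnajb1 and Hspb1), 2 of 10 ER (Calr and Hspa5) and 0 of 3 mitochondrial. The shares of all genes were 2.94% higher and 2.12% lower.

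The number of 7 depended on single arrays. It was 2 without Sal replicate 2 or 30C replicate 3 and 4 without Sal replicate 3. Median centring of the arrays also gave 4, as did a fit with the replicate number as a block. In 6 members the 3 arrays of 30C lay above all Sal arrays (Chordc1, Dnaja4, Dnajb4, Hspa8, Hspb1 and Calr), against 4.3% of all genes, and in 0 below, against 4.11%. In 30C against Sal 12 of 12 oligodendrocyte markers were negative (median -0.11), and their part was not tested.

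In the other cocaine groups 1 member each was higher than Sal at an unadjusted p under 0.05, and in each it was Dnaja4. The shares of all genes were 4.25% in 30W, 2.1% in 1C and 2.78% in 1W. In each group 0 members were lower, against 3.35%, 1.33% and 2.09% of all genes. Differences were positive for 23 of 31 members in 30W (median 0.049), for 27 in 1C (0.045) and for 15 in 1W (-0.0050), beside medians of -0.011, 0.0067 and 0.012 over all genes. In 1W the count was 22 without Sal replicate 1 and 10 without Sal replicate 3, and its median turned positive, to 0.034, without Sal replicate 1 and to 0.019 without 1W replicate 3. The 30W count was 17 after median centring, and the 1C count at an unadjusted p under 0.05 was 8 without 1C replicate 3 and 5 without Sal replicate 1. In 30W it was 4 without Sal replicate 1 or 30W replicate 2.

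Members whose arrays did not overlap those of Sal were counted as well. In 30W, Dnaja4 and Hspa2 lay above all Sal arrays, against 6.47% of all genes, and Hsp90ab1 below, against 7.19%. In 1C, Dnaja4 lay above, against 3.97%, and 0 members below, against 3.21%. In 1W, Dnaja4 and Hsp90aa1 lay above, against 4.84%, and Dnajb11 below, against 3.25%.

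**Figure D3:**
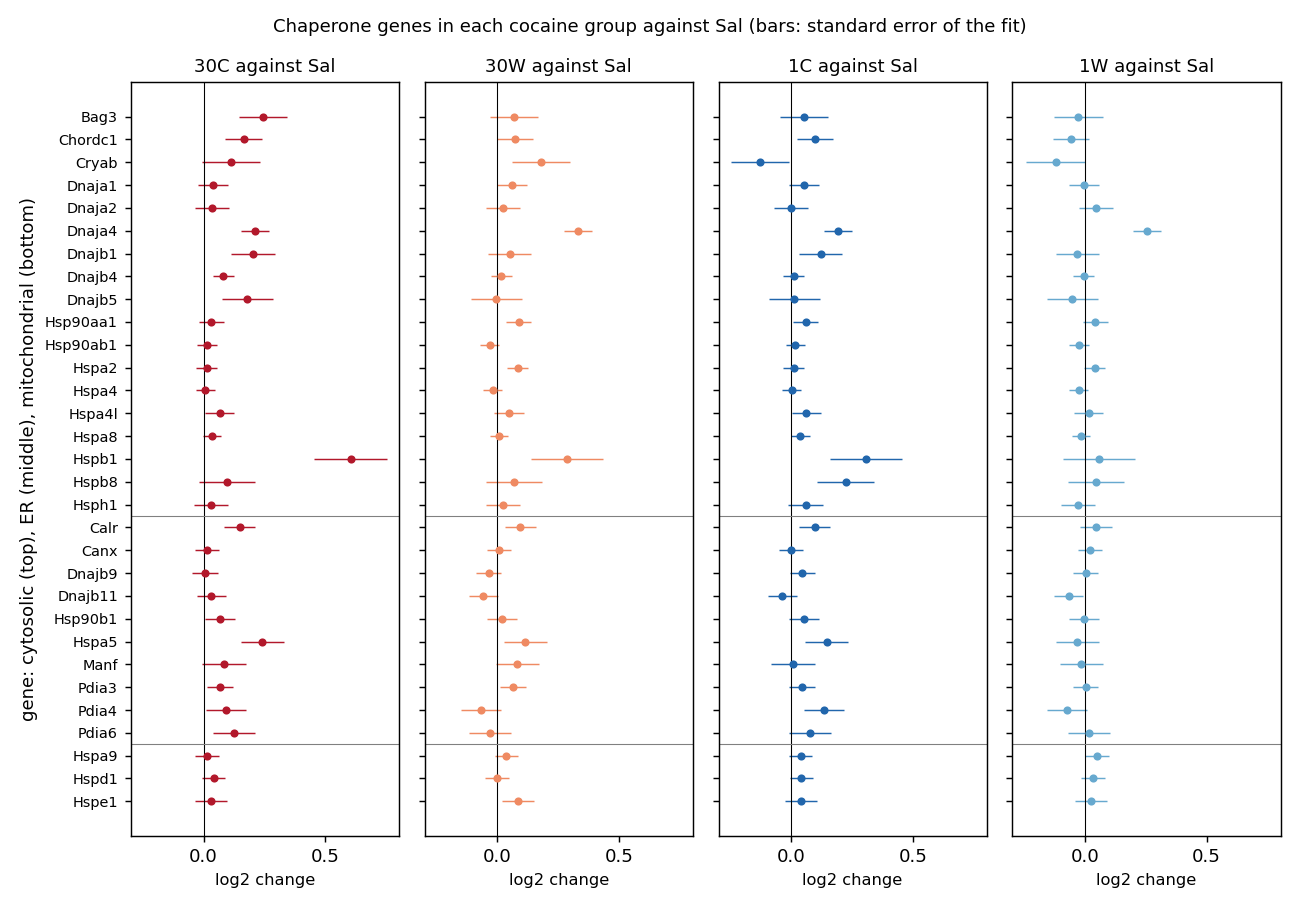
Each panel gives the log2 change of every chaperone gene in 1 cocaine group against Sal, with bars of 1 standard error of the fit over 15 arrays, cytosolic genes above, ER genes in the middle and mitochondrial genes below. Points lie right of 0 for all 31 genes in 30C and for 15 in 1W, and Hspb1 in 30C at 0.61 and Dnaja4 in all panels lie farthest from 0 relative to their bars.

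The group means were also ranked for each gene. The highest of the 5 group means was in 30C for 15 members, in 30W for 6, in 1C for 7, in 1W for 3 and in Sal for 0, where all genes had 16.1%, 17.6%, 21.6%, 28.4% and 16.3%. The lowest mean was in 30C for 0 members, in 30W for 4, in 1C for 3, in 1W for 14 and in Sal for 10, where all genes had 22.3%, 28.7%, 14.6%, 16.3% and 18.2%. These ranks rest on the same group means as the differences above, so they are no independent support. All members were read on the same 15 arrays, so their ranks are not independent of one another. The ranking was not repeated with other normalizations or without single arrays.

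The extinction test was compared at each withdrawal time, asking how expression differed after cue exposure. In 30C against 30W, Hspb1 was higher at an unadjusted p under 0.05, against 2.11% of all genes, and 0 members were lower, against 1.82%. The unadjusted p of Hspb1 was 0.04999 in limma (adjusted p = 0.999), and the count was 0 without Sal replicate 3, any array of 1W, 30W replicate 2, 1C replicate 1 or 30C replicate 3. A fit blocked on replicate number also gave 0 (Hspb1 at 0.32, SE 0.16, adjusted p = 0.999). The count was 2 when replicate 1 of Sal, replicate 3 of 1C, or replicate 1 or 2 of 30C was left out. The number lower was 1 when replicate 2 of 30W, replicate 1 or 2 of 1C, or replicate 2 of 30C was left out. All 10 ER genes were positive with a median of 0.051, 13 of 18 cytosolic genes with a median of 0.026, and 1 of 3 mitochondrial genes. After a further quantile normalization 7 of 10 ER genes were positive. In total 24 of 31 were positive, against 52.4% of all genes, and 18 were without 30W replicate 2. The arrays did not overlap for Dnajb5, Hspb1, Pdia4 and Hspd1, which were higher in 30C, against 4.51% of all genes, and for Hspa2, which was lower, against 3.87%. Marker lists of cell types differed in direction here. Negative were 11 of 12 markers of oligodendrocytes (median -0.09), 11 of 12 of endothelial and mural cells (-0.07) and 12 of 13 of medium spiny neurons (-0.09). Positive were 8 of 12 of microglia (median 0.019), 5 of 9 of astrocytes (0.016) and 5 of 7 of choroid plexus and ependyma (0.045). Of cortical neuron markers 3 of 6 were positive (-0.0013), and of blood markers 1 of 3 (-0.06). The part of these cells was not tested.

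In 1C against 1W, Pdia4 was the 1 member higher at an unadjusted p under 0.05, against 1.86% of all genes, and 0 were lower, against 2.17%. The median was 0.043 and 25 of 31 were positive, with 9 of the 10 ER genes among them, against 47.1% of all genes. Oligodendrocyte markers were negative in 12 of 12 (median -0.19), with 10 lower at an unadjusted p under 0.05, and their part was not tested. Without 1C replicate 3 the number at an unadjusted p under 0.05 was 6, and it was 0 when replicate 1 or 2 of 1C, or replicate 1 or 3 of 1W, was left out. For 0 members did the 1C and 1W arrays stand apart, against 3.57% of all genes higher and 4.3% lower. Averaged over both times, 5 members were higher (Pdia4, Hspb1, Dnajb1, Hspa5 and Chordc1), against 2.5% of all genes, and Dnaja4 was lower, against 2.34%. Leaving out replicate 3 of 1W, replicate 1 or 2 of 1C, or replicate 3 of 30C made the 5 into 2, and leaving out replicate 2 of 30W made it 3. The number that were lower was 0 without replicate 1 or 2 of 1W, 1 or 3 of 30W, 1 or 3 of 1C, or 1 or 3 of 30C. The interaction of test and time took 0 members at an unadjusted p under 0.05, against 1.6% of all genes higher and 1.43% lower.

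Withdrawal time was compared with and without the test. In 30W against 1W, Cryab was higher at an unadjusted p under 0.05, against 4.19% of all genes, and 0 members were lower, against 5.9%. Cryab, Hspb1 and Hspa5 did not overlap between the groups and were higher, against 5.53% of all genes, and 0 were lower, against 10.5%. Leaving out replicate 3 of 1W or replicate 1 of 30W made the count of 1 into 0, and leaving out replicate 2 of 30W made it 2. In all, 24 of 31 members were positive against 39.7% of all genes. Markers of microglia (median -0.17), oligodendrocytes (-0.14) and endothelial and mural cells (-0.09) were each negative in 12 of 12, and their part was not tested. After median centring 16 of 31 were positive. In 30C against 1C, 0 members passed an unadjusted p of 0.05, against 2.41% of all genes higher and 3.07% lower, and 20 of 31 were positive, or 13 after median centring, 10 without 1C replicate 3 and 25 without 1C replicate 1. The number higher at an unadjusted p under 0.05 was 2 when replicate 1 of Sal, replicate 2 of 1C, or replicate 1 or 2 of 30C was left out, and 1 without replicate 2 of Sal or replicate 2 or 3 of 1W. Markers of medium spiny neurons (13 of 13) and of endothelial and mural cells (12 of 12) were negative here, with medians of -0.12 and -0.11, and their part was not tested. Dnajb4 and Dnajb5 were higher with no overlap, against 3.82% of all genes, and 0 were lower, against 5.87%. The median of 0.014 was -0.015 after median centring and -0.014 without 1C replicate 3. Averaged over the test, Cryab and Hspb1 were higher on day 30, against 5.54% of all genes, and 0 members were lower, against 7.45%. Leaving out 1 array gave 1 to 5 in place of 2, with 5 when replicate 2 of 30W was left out, 4 for replicate 1 of Sal or of 1C, and 1 for replicate 3 of 1W, of 1C or of 30C or replicate 1 of 30W. Here 1 gene of all, 0.00849%, passed the adjusted test and it was no member. The median of 0.024 became -0.011 after median centring. The arrays of the 2 times also differed in the 25th percentile of all probe sets, which was 5.53 to 5.59 on the day 30 arrays and 5.48 to 5.51 on the day 1 arrays. Its part in these differences was not tested.

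Chaperone levels also differed between arrays of a group. The mean deviation of the 10 ER genes was 0.05, 0.02 and 0.11 on the 30C arrays, -0.0080, -0.07 and 0.05 on the 30W arrays, 0.11, 0.07 and -0.11 on the 1C arrays, -0.03, -0.03 and -0.07 in 1W, and 0.04, -0.06 and -0.07 in Sal. The highest and the lowest ER score both came from group 1C. Markers of the choroid plexus and ependyma (8 of 10 measured, 7 past the filter) had scores of -0.20 to 0.41 in 30C, -0.18 to 0.47 in 30W, -0.06 to 0.41 in 1C, -0.26 to 0.02 in 1W and -0.19 to 0.01 in Sal. The 3 arrays above 0.4 (30C replicate 3, 30W replicate 3 and 1C replicate 1) had the highest ER score of their groups. The part of these cells in the ER values was not tested.

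Cortical marker scores were lowest on Sal replicate 1, the Sal array with the highest chaperone score, and highest on 30C replicate 1. Without both of these arrays 27 of 31 differences of 30C from Sal were positive, where all genes had a median of -0.0016. The difference of Hspb1 was then 0.83, and it was 0.77 without Sal replicate 1 alone, against 0.61 with all arrays. With the cortical score as a covariate all 31 differences of 30C from Sal were positive, where all genes had a median of -0.0052. In that comparison 0 members, and 0 of all genes, passed the adjusted test. The part of cortical cells in the chaperone values was not tested. Immediate early genes, transcribed within minutes of neuronal activity, had scores of 0.74, 0.46 and 0.37 on the 30C arrays. The scores lay between -0.39 and 0.06 on the 30W arrays and between -0.22 and 0.11 on the 1C arrays. On the 1W arrays they lay between -0.50 and -0.11, and on the Sal arrays between -0.38 and 0.25. The relation of these scores to the chaperone values was not tested.

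**Figure D4:**
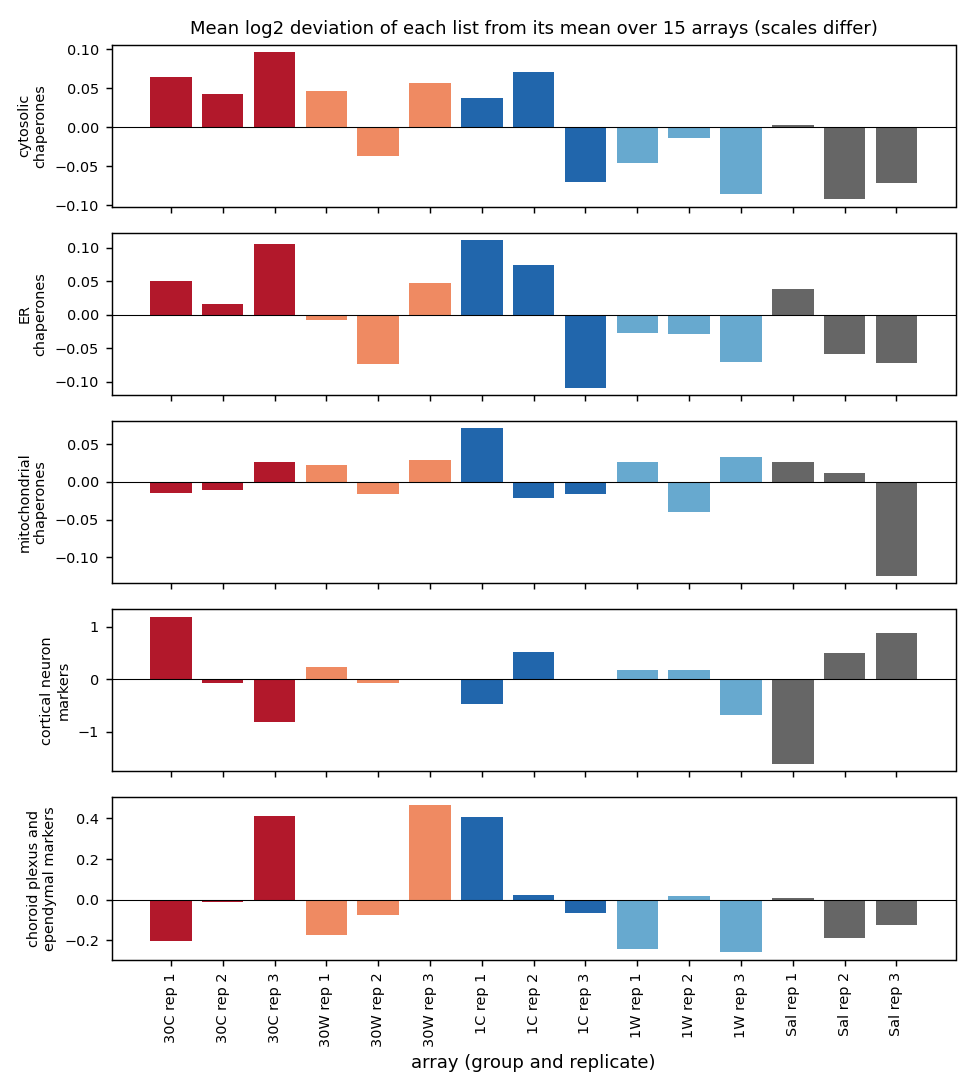
Bars give, for each array, the mean log2 deviation of cytosolic, ER and mitochondrial chaperone genes and of cortical neuron and choroid plexus and ependymal markers from their means over 15 arrays, on scales that differ between panels. The cortical score spans -1.61 to 1.20 while the ER chaperone score spans -0.11 to 0.11, and the 3 arrays with the highest choroid plexus scores are 30W replicate 3, 30C replicate 3 and 1C replicate 1.

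The wider network of each compartment was read from lists of co-chaperones, folding enzymes and stress regulators. Of 34 further cytosolic genes, among them the chaperonin subunits, HSF1 and the Hsp90 co-chaperones, 0 passed in any comparison in limma after adjustment over all genes, as did 0 of 28 ER genes and 0 of 11 mitochondrial genes. In 30C against Sal 19 of 34 cytosolic, 18 of 28 ER and 2 of 11 mitochondrial genes were positive, with medians of 0.010, 0.032 and -0.023, against 46.8% of all genes. At an unadjusted p under 0.05, 0 cytosolic genes were counted, 2 ER genes were higher and 1 mitochondrial gene was lower, against 2.94% of all genes higher and 2.12% lower. Serpinh1, the collagen chaperone of the ER, stood above all Sal arrays in 30C by 0.31 (SE 0.09, adjusted p = 0.76). Htra2, a protease of the mitochondrial intermembrane space, was at -0.19 (SE 0.07, adjusted p = 0.88) and below 1C by 0.18 on the log2 scale. Without 30C replicate 2 it was at -0.12 against Sal and -0.11 against 1C.

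In 30C against 30W, 3 of 28 ER, 2 of 34 cytosolic and 1 of 11 mitochondrial network genes were higher with no overlap of arrays, against 4.51% of all genes. Lower with no overlap were 0 ER, 2 cytosolic and 2 mitochondrial network genes, against 3.87%. In 30W against 1W, 4 of 28 ER, 3 of 34 cytosolic and 1 of 11 mitochondrial genes were lower with no overlap, against 10.5%. In each of these lists 0 genes were higher with no overlap, against 5.53%. Uggt1, which re-tags misfolded glycoproteins for calnexin and calreticulin, was higher in 30C than in 30W by 0.11 (SE 0.05). Sil1, the exchange factor of BiP, was above Sal in 1W by 0.14 (SE 0.06) and was at -0.14 (SE 0.06) in 30W against 1W. Ganab, a glucosidase subunit that trims glycans for the lectins, was above Sal in 1C by 0.13 (SE 0.06), and Erp29 in 1W by 0.13 (SE 0.06), or 0.08 without Sal replicate 3. Sdf2 and Hspa13 were at -0.22 (SE 0.08) and -0.16 (SE 0.06) in 30C against 1C, and Hscb, the J-protein of iron-sulfur cluster assembly, at -0.17 (SE 0.07) in 1C against 1W.

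On day 30 without a test, Trap1, the mitochondrial Hsp90, was at -0.13 (SE 0.05) and Hspbp1, an Hsp70 exchange factor, at -0.12 (SE 0.05) against 1W, or -0.08 without 1W replicate 2. All the network differences named had an adjusted p of at least 0.40 in limma.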

How the data were processed

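RNA of 15 nucleus accumbens samples was measured on Affymetrix rat arrays. The deposited table holds log2 values, for which the submitters' processing notes name RMA. The RMA version, the software and any filters were not given in the sources used here. Per the labels' protocols, RNA was labelled with a kit for 3′ arrays, while the probe sets bear whole-transcript identifiers. Of 28826 probe sets, 15209 had 1 gene symbol, 306 had several and 13311 were unnamed here. Entrez identifiers of 15178 matched RefSeq (GRCr8). Of 14497 genes, 494 had over 1 probe set. Genes above the array's 30th percentile on at least 3 arrays (11778) were fitted with limma 3.58.1 in R 4.3.3 (lmFit, eBayes), with group as the only term over all 15 arrays (residual df 10, prior df 3.44), and two-sided p-values were adjusted by Benjamini-Hochberg within each comparison at 0.05. The fit was tested on simulated data. The comparisons were 8 pairs of groups, 3 averaged or interaction effects and all cocaine groups against Sal. For 3 arrays against 3, no exact two-sided p can go below 0.1.

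Members and lists were chosen with earlier results of these data known. Values on every array are given for members with an unadjusted p under 0.05 and groups that do not overlap, and for Hspb1, Hspa5, Hspa8, Hsp90aa1, Hsph1, Dnajb1 and Hspd1. Bag3, Dnajb5 and Pdia4 were added after their values were seen. Of these, Bag3 is given on the 30C and Sal arrays only and Dnajb5 on the 30C and 30W arrays only. Network genes followed the same criteria, at most 3 per comparison and list. Alternatives covered the filter, probe set choice, normalization, variance model, weights, block, threshold and leaving out each array. In 2 of 10 pairs of groups all 3 correlations of deviations between same-numbered arrays were over 0.1. These were 30C with 30W, at 0.10, 0.16 and 0.15, and 30C with 1W. Between 30C and Sal they were -0.51, 0.02 and -0.63. Such values do not show that replicate numbers paired the samples, and no label gives a pairing.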

Additional observations from a re-analysis of the deposited data

How the results depend on the processing

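The number of chaperone genes past the adjusted threshold was 0 in every comparison under every alternative run. The median difference of the members moved by less than 0.052, the within-group SD of their score. Most medians were themselves smaller than this, so a change of sign could pass as no move. Signs did change in 30C against 1C, in 1W against Sal, for withdrawal time averaged over the test and for the interaction. The number of all genes past it, 0 in the comparisons named next, became 1 in 30C against 30W, 2 in 30C against 1C and 3 in 30W against 1W with weighted arrays. With the cortical score as a covariate it became 1 in 30C against 30W, 1 in 30C against 1C, 2 for the averaged test and 1 for the F test. At an adjusted p under 0.10 it was 1 in 30C against 30W. For withdrawal time averaged over the test it was 1, and 6 with array weights, 5 at the threshold of 0.10, 2 with the filter at the 50th percentile, 4 after a further quantile normalization and 2 after median centring. It was 0 with only the arrays compared and 0 without both Sal replicate 1 and 30C replicate 1, an alternative chosen after seeing the data, as was the motif search limited to the bases before the start.

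Leaving out 1 array at a time gave 0 to 1 genes in 1C against Sal, 30C against 30W, 1C against 1W and 30W against 1W, 0 to 2 in 30C against 1C and in the F test, and 0 to 3 for withdrawal time. Members with a heat shock element numbered 10 with 1 mismatch, against 6 without, and 4 before the start only. Same-numbered arrays deviated together in 10 of 30 pairs (correlation over 0.1, range -0.63 to 0.51), all 3 of them between 30C and 30W and between 30C and 1W, and 6 of 15 arrays correlated best with their own number. With a replicate block 4 members, against 7, were higher in 30C than in Sal at an unadjusted p under 0.05, and 0 members passed. Dnaja4 in 30W against Sal had its lowest adjusted p over the alternatives at 0.087. With 3 arrays per group, differences of the size seen here may not reach the adjusted threshold. The causes of these changes were not tested.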
